A study of Caenorhabditis elegans with 2 samples.

Results

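The regions described here are chromatin sites bound by DAF-16 in Caenorhabditis elegans that carry CAGCTG, the E-box recognised by the muscle regulator HLH-1, close to their summit. They were taken from the ce11 list of peaks that passed a threshold on the irreproducible discovery rate (IDR), which ranks peaks by their agreement between replicates. A nuclear IDR peak was a member, called an E-box peak below, when a whole CAGCTG lay within 100 bp of its summit. This held for 267 of the 2540 nuclear IDR peaks, out of 2563 in all. Among nuclear IDR peaks, membership followed from the position of the called summit and the genome sequence around it. The IDR list itself was selected on signal and on agreement between replicates, so both are high in members and non-members alike.

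DAF-16 was profiled by chromatin immunoprecipitation and sequencing in 2 biological replicates of whole L4 hermaphrodites of strain ZM7247, 54 hours after starved, synchronised L1 larvae were released. The genotype combines the daf-16 allele mu86, the daf-2 allele e1370 and the transgene hpSi4, in which the myo-3 promoter drives GFP::daf-16a. That promoter is active in body wall muscle, so the tagged protein was made in muscle cells while the chromatin came from whole animals. A further label describes a C-terminal GFP-FLAG tag, which differs from the order of the genotype, and an anti-GFP antibody was used. Both replicates belong to 1 group, and neither an input library nor a second genotype was analysed here. The comparisons are therefore between E-box peaks and the 2273 other nuclear IDR peaks, or between IDR peaks and 27437 weaker candidates of the pooled replicates more than 100 bp from any IDR summit. Read counts and depth are unknown. Every p-value is from a two-sided Fisher test (exact) that treats peaks, or copies of the hexamer where stated, as units, not animals. Intervals are Wilson 95% intervals that cover counting error alone.

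E-boxes are short sites for basic helix-loop-helix (bHLH) transcription factors, which bind DNA as dimers, each partner reading one side of the site. The central bases and the bases next to the hexamer differ between factors. HLH-1 is the worm homologue of vertebrate MyoD and acts with the SRF homologue UNC-120 and with HND-1 in body wall muscle fate. DAF-16 is the FOXO factor held out of the nucleus by insulin signalling through DAF-2, and its own site is the DAF-16 binding element (DBE), TGTTTAC.

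The sequences below show the hexamer in its context at 6 E-box peaks, read from the plus strand of the RefSeq copy of WBcel235 (ce11), with CAGCTG in capitals and, where present, the DBE also in capitals. The first pair lie nearest to genes of the muscle lists, let-2, a type IV collagen chain of basement membranes, at chrX:16392297-16392362, and unc-68, the ryanodine receptor that releases calcium in muscle, at chrV:6930365-6930430. The others are among the strongest E-box peaks. They lie upstream of nspc-17 at chrX:14525840-14525905, in intergenic sequence far upstream of F22B7.9 at chrIII:8658528-8658593, in an intron of the forkhead gene fkh-7 at chrIV:5593934-5593999, and between the Hsp70 family genes F44E5.4 and F44E5.5 at chrII:11759463-11759528.
let-2: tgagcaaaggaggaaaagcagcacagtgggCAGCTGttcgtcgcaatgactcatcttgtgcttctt
unc-68: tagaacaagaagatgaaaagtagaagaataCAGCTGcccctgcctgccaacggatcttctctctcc
nspc-17: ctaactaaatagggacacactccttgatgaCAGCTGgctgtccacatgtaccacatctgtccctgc
F22B7.9: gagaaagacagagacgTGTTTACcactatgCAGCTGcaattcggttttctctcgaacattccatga
fkh-7: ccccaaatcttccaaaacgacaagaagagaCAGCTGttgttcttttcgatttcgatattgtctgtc
F44E5.4: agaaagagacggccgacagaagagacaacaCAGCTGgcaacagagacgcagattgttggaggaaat
In the fkh-7 sequence an adenine precedes the hexamer on both strands (the t that follows it here is an a on the other strand). At nspc-17, unc-68 and F44E5.4 it does so on the printed strand and at let-2 on the other strand, and F22B7.9 has none. At F22B7.9 the DBE ends 7 bases before the E-box.

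CAGCTG was more common at IDR summits than at weaker candidates and than in the genome, and several other E-boxes were as well. It lay at 10.5% of nuclear IDR peaks (interval 9.38 to 11.8) and at 5.84% of the other candidates (log2 odds ratio, log2 OR, 0.92 ± 0.10 SE, exact test, Benjamini-Hochberg adjusted p = 2.50e-17 over 11 hexamers). Of consecutive windows of the same length over the nuclear genome, 3.87% held it. The 2 sets of peaks differed in location, with 1624 of the 2540 IDR peaks and 8766 of the 27437 other candidates intergenic. In intergenic peaks alone, CAGCTG lay at 10.1% of IDR peaks and 5.02% of the other candidates (log2 OR 1.09 ± 0.14). All 10 E-box hexamers of the form CANNTG were searched on both strands. CACATG lay at 13.2% of IDR peaks and 7.16% of the others (0.98 ± 0.09). CACGTG, the E-box of Myc and Max type factors, was at 7.87% of IDR peaks and 4.35% of the others (0.91 ± 0.11). CAACTG was at 18.6% of IDR peaks and 11.3% of the others (0.84 ± 0.08). The order of these log2 ORs changed between alternatives, and the highest was CAGCTG in 3 of them, while CACATG or, in others, CACGTG was highest in the rest. CAAGTG lay at 13.3% of IDR peaks and 9.37% of the others (exact test, adjusted p = 2.65e-09). CACCTG lay at 7.76% of IDR peaks and 6.45% of the others (exact test, adjusted p = 0.0210), a call that was lost on the autosomes alone, in intergenic peaks alone, with 200 bp on each side, and against other candidates matched in both replicates (exact tests, adjusted p = 0.475, 0.0640, 0.0889 and 0.223). Among those that did not pass, CAAATG was at 15.7% of IDR peaks and 15.8% of the others and CAATTG at 8.78% of IDR peaks and 8.34% of the others (exact tests, adjusted p = 0.909 and 0.475). CAGATG was at 10.4% of IDR peaks and 9.30% of the others (exact test, adjusted p = 0.104), and it passed in each replicate alone, in intergenic peaks alone, without peaks at small RNA genes and without peaks of recurring sequence (exact tests, adjusted p from 0.00575 to 0.0373). CATATG was at 2.95% of IDR peaks and 3.54% of the others (exact test, adjusted p = 0.173). CTGCAG, a palindrome of the same bases that is no E-box, was at 4.21% of IDR peaks and 2.99% of the others (0.51 ± 0.15, exact test, adjusted p = 0.00215). This last call was lost when either replicate was left out and with windows of 50 or 200 bp on each side.

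The hexamer was concentrated around the summits. Within 50 bp of IDR summits there were 16.14 copies per 1000 peaks in each 25 bp, against 4.68 at 400 to 600 bp, a ratio of 3.45. At the other candidates there were 8.46 copies within 50 bp and 5.12 at 400 to 600 bp, a ratio of 1.65. The plot of copies against distance shows both profiles. Within E-box peaks the nearest copy was centred a median of 40.5 bp from the summit (quartiles 19.5 and 64.5, range 0.5 to 97.5). In 33 peaks it was centred within 10 bp of the summit and in 10 between 90 and 100 bp away. It lay on the lower-coordinate side of the summit in 144 of the 267.

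**Figure D1:**
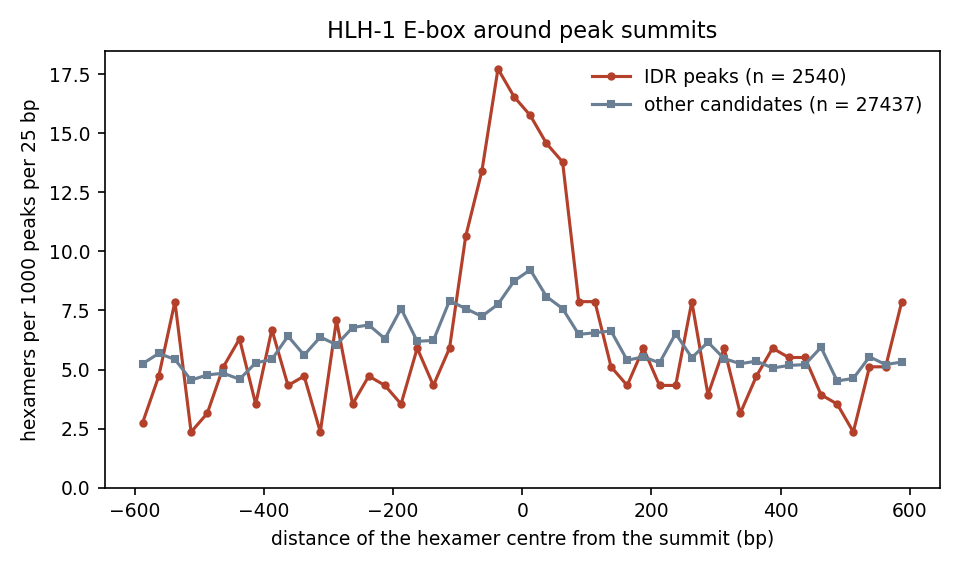
Copies of CAGCTG per 1000 peaks in each 25 bp (vertical axis) against the distance of the copy from the summit in bp (horizontal axis), for the 2540 nuclear IDR peaks and the 27437 other candidates. Near the summit the IDR curve averages 16.14 and that of the other candidates 8.46, and beyond 400 bp the IDR curve averages 4.68 and the other 5.12.

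The share of peaks whose nearest copy was within 50 bp of the summit was 60.3% in E-box peaks (161 of 267, interval 54.3 to 66.0) and 55.5% in the 1601 other candidates with the hexamer, which did not pass the test (log2 OR 0.29 ± 0.19, exact test, p = 0.143). The same measure passed with the strongest candidates of only 1 replicate as the bound set, with a log2 OR of 0.82 from replicate 2 alone (exact test, p = 7.59e-05) and 0.47 from replicate 1 alone (exact test, p = 0.0218). At the edge of the rule, the outermost members had the hexamer centred 97.5 bp from the summit, near Y38F2AR.12 (signal 134), and 96.5 bp away, near ubc-8 (signal 88.1) and near unc-68 (signal 66.2). The closest non-members, with a centre at 98.5 bp and part of the hexamer outside the window, lay near tos-1 (signal 257) and hsp-25 (signal 72.0).

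The base next to the hexamer set E-box peaks apart from weaker candidates with the same hexamer. Because the hexamer is a palindrome, the base directly 5′ of it was read on both strands. An adenine there on at least 1 strand, giving ACAGCTG, was found in 63.3% of E-box peaks (169 of 267, interval 57.4 to 68.9) and in 40.7% of the other candidates with the hexamer (652 of 1601, interval 38.3 to 43.2). The log2 OR was 1.33 ± 0.20 (exact test, p = 1.05e-11). Adenine stood on both strands in 13.9% of E-box peaks and 6.37% of the other candidates. Cytosine on at least 1 strand was found in 23.6% of E-box peaks and 38.9% of the other candidates. Guanine was found in 37.1% of E-box peaks and 40.2% of the other candidates, and thymine in 47.2% of E-box peaks and 50.9% of the other candidates.

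**Figure D2:**
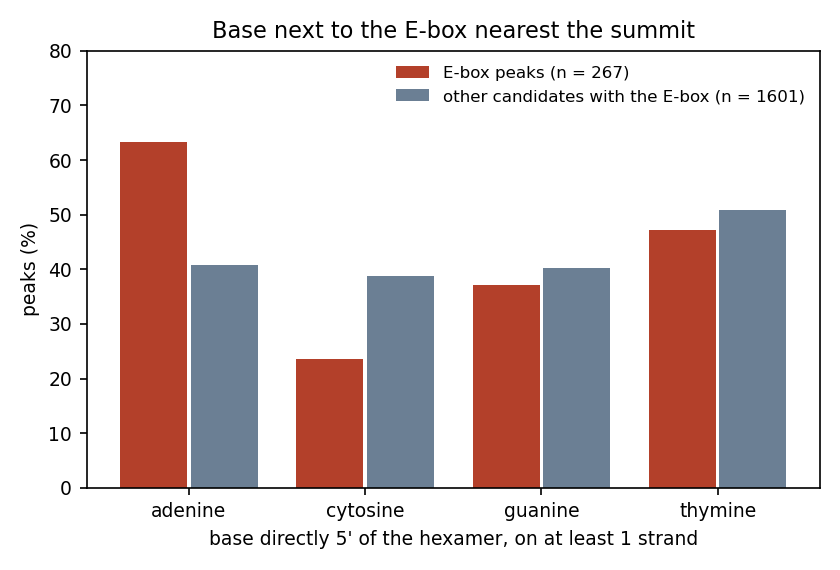
Share of peaks in percent (vertical axis) with each base directly 5′ of the hexamer nearest the summit on at least 1 strand (horizontal axis), for the 267 E-box peaks and the 1601 other candidates with the hexamer. Adenine is at 63.3% in E-box peaks and 40.7% in the others, and cytosine at 23.6% in E-box peaks and 38.9% in the others.

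The adenine share was also set against 2 further measures that were chosen after these values were seen. Every copy of CAGCTG lying 200 to 600 bp from any of the 2540 nuclear IDR summits was counted, whether or not the peak was an E-box peak. The adenine preceded 43.04% of these copies (167 of 388). This was below the 63.3% at the nearest copy of the E-box peaks (log2 OR 1.19 ± 0.24, exact test, p = 3.46e-07). The comparison sets copies against peaks. For the other candidates these shares were 40.7% at the summit and 37.8% away from it (0.17 ± 0.08). The adenine before other palindromic hexamers was at 41.5% in IDR peaks and 38.5% in other candidates for CACGTG, which did not pass (exact test, adjusted p = 0.542 over 5 palindromes). For CTGCAG it was at 52.3% in IDR peaks and 45.6% in other candidates (exact test, adjusted p = 0.360). For CATATG it was in 45 of 75 IDR peaks and 47.7% of other candidates (exact test, adjusted p = 0.105), and for CAATTG at 49.8% in IDR peaks and 48.4% in other candidates (adjusted p = 0.726). Whether these hexamers differ from CAGCTG was not tested.

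A second copy was uncommon. Of E-box peaks, 258 held 1 copy, 8 held 2 and 1 held 3, so 3.37% had at least 2, against 5.18% of the other candidates with the hexamer (log2 OR -0.65 ± 0.52, exact test, p = 0.283). The peak with 3 copies lay between F44E5.4 and F44E5.5. The next by signal with 2 copies were the peak upstream of cpn-3, a calponin, whose copies start 8 bp apart, and a peak in an intron of znf-782, whose copies start 63 bp apart.

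No difference in strength between E-box peaks and other IDR peaks passed the test. The signal, the value of the authors' peak caller in units of unstated scale, had a median of 95.7 in E-box peaks (quartiles 77.1 and 134, range 60.6 to 648) and 93.6 in the other IDR peaks (quartiles 73.4 and 130). At or above the median of all nuclear IDR peaks were 50.6% of E-box peaks and 49.9% of the others (log2 OR 0.04 ± 0.19, exact test, p = 0.897). In 5 equal groups of IDR peaks by falling signal, the hexamer was at 11.2%, 10.6%, 11.02%, 10.8% and 8.86%. The intervals of all 5 overlapped, and differences between these groups were not tested. With the signal of replicate 2 in place of the pooled one, E-box peaks were more often at or above the median (log2 OR 0.39 ± 0.19, exact test, p = 0.0479).

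Over the whole list of pooled candidates the share followed the signal. In 10 equal groups by falling signal it was 10.0%, 7.87%, 6.87%, 5.97%, 5.87%, 5.54%, 5.07%, 5.87%, 4.70% and 4.50%. All nuclear IDR peaks lie in the group of highest signal.

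**Figure D3:**
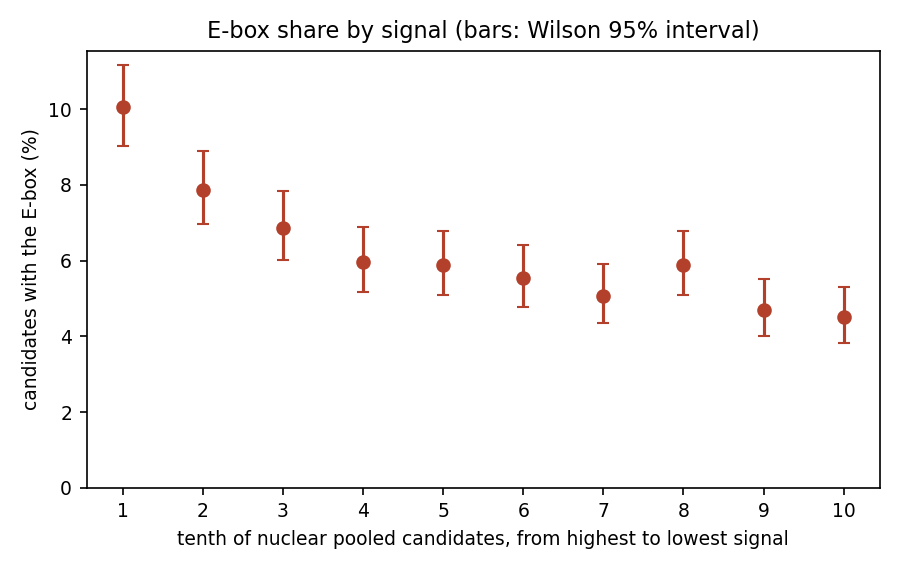
Share of nuclear pooled candidates with the hexamer within 100 bp of the summit, in percent (vertical axis), in 10 equal groups from highest to lowest signal (horizontal axis); bars are Wilson 95% intervals. The share is 10.0% in the group of highest signal and 4.50% in that of the lowest.

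All 267 E-box peaks had a candidate summit of replicate 1 within 100 bp, and 257 had one of replicate 2 as well (96.3%, interval 93.2 to 97.95). Of the other IDR peaks 94.9% were matched in both replicates (log2 OR 0.48 ± 0.48, exact test, p = 0.375). IDR membership depends on that agreement, so high shares are built in. Matched signals ranged from 13.3 to 331 in replicate 1 and from 13.4 to 333 in replicate 2. The ratio of replicate 2 to replicate 1 had a median of 1.09 in E-box peaks (quartiles 0.877 and 1.37) and 1.09 in the others.

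**Figure D4:**
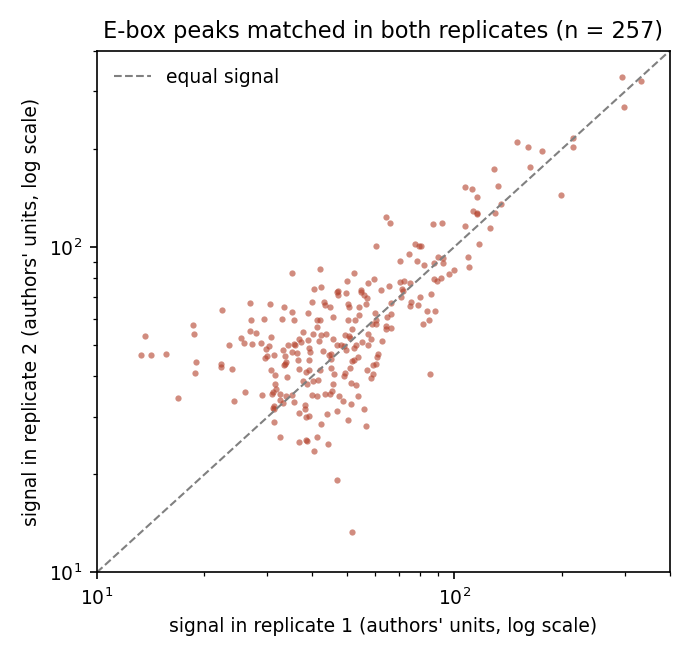
Signal of each of the 257 E-box peaks matched in both replicates, replicate 1 on the horizontal and replicate 2 on the vertical axis, both on log scales in the authors' units; the dashed line marks equal signal. Points scatter around the line, with replicate 2 higher in 160 of them.

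No location class differed between E-box peaks and other IDR peaks after adjustment. Summits outside protein-coding genes made up 61.4% of E-box peaks (164 of 267) and 64.2% of the others (log2 OR -0.17 ± 0.19, exact test, adjusted p = 0.711 over 5 classes). Introns held 27.3% of E-box peaks and 27.1% of the others, 5′ UTRs 3.37% of E-box peaks and 2.95% of the others, and 3′ UTRs 0.749% of E-box peaks and 1.63% of the others. Coding exons held 7.12% of E-box peaks and 4.09% of the others (0.84 ± 0.38), which did not pass after adjustment (exact test, adjusted p = 0.192). This class passed when the strongest replicate 2 candidates alone were used (log2 OR 1.08, exact test, adjusted p = 0.0149).

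**Figure D5:**
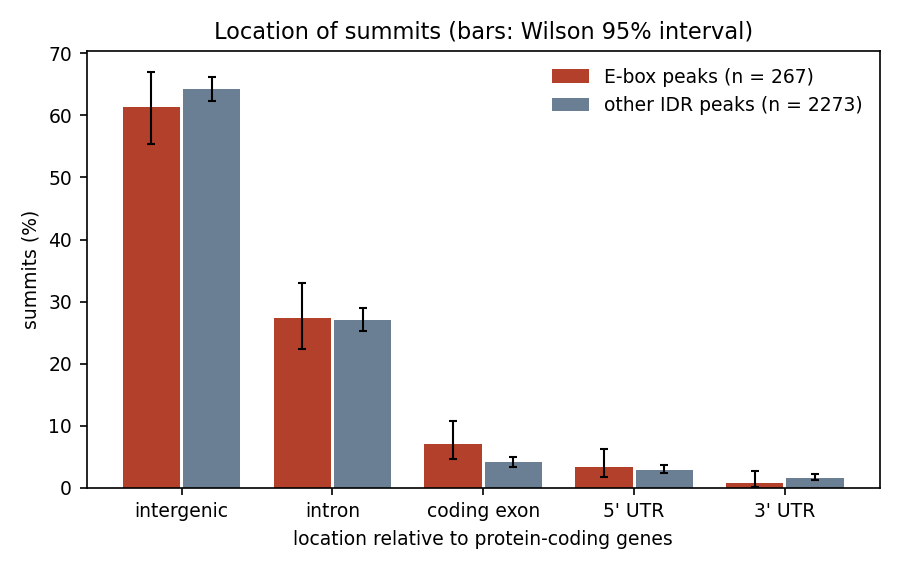
Share of summits in percent (vertical axis) in each location class relative to protein-coding genes (horizontal axis), for the 267 E-box peaks and the 2273 other IDR peaks; bars are Wilson 95% intervals. The intervals overlap in every class, with 61.4% of E-box peaks and 64.2% of the others intergenic.

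A summit from 1000 bp upstream to 200 bp downstream of a protein-coding transcript start, called the promoter window below, was found for 43.8% of E-box peaks (117 of 267) and 47.1% of the others (log2 OR -0.19 ± 0.19, exact test, p = 0.331). For 23 E-box peaks the windows of 2 or more genes held the summit, so a single gene cannot be assigned. The nearest start within 5000 bp was downstream of the summit, so that the peak was upstream of the gene, in 164 E-box peaks, and 15 had no start that close. On X lay 28.1% of E-box peaks and 28.9% of the others (log2 OR -0.06 ± 0.21, exact test, p = 0.830). By chromosome the share of IDR peaks with the hexamer ran from 8.68% on V (35 of 403) to 14.0% on II (49 of 351). The intervals were 6.31 to 11.8 on V and 10.7 to 17.98 on II, and differences between chromosomes were not tested.

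Fewer E-box peaks than other IDR peaks were at genes of small RNAs. A summit within 100 bp of a transfer, small nucleolar or small nuclear RNA gene was found in 5.99% of E-box peaks (16 of 267) and 11.4% of the others (260 of 2273, log2 OR -1.02 ± 0.38, exact test, p = 0.00494). The difference was lost on the autosomes alone (-0.66, exact test, p = 0.147). Of E-box peaks 4.12% held a 31-base sequence that recurs in the genome, against 12.49% of the others. Without such peaks, a comparison added after the data were seen, the log2 OR at small RNA genes was 0.18 (exact test, p = 0.718).

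The strongest E-box peaks were at genes of many functions. At the peak upstream of nspc-17 (chrX:14525903, 722 bp upstream) the signals were 648 in the pooled list, 331 in replicate 1 and 323 in replicate 2. The peak with the DBE shown above (chrIII:8658588) had 627 in the pooled list, 293 in replicate 1 and 333 in replicate 2, and the nearest start, of F22B7.9, was 4663 bp away. These peaks were picked by the pooled signal, which combines both replicates, so high values in each replicate are largely built in. Introns of fkh-7 held 2 of the 20 strongest, at chrIV:5594051 (signal 561) and chrIV:5591293 (signal 256).

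Next came a peak among noncoding RNA genes without a protein-coding start within 5000 bp (chrX:5812126, signal 428) and one in a coding exon of gpcp-1 (chrX:3108706, signal 417). The divergent Hsp70 family genes F44E5.4 and F44E5.5 shared a peak at chrII:11759476 (signal 374). The insulin-like peptide gene ins-39 had its peak 616 bp upstream (chrX:1345037, signal 361). Peaks followed in an intron of C55A6.10 (chrV:11506566, signal 360), in F40E3.5 (chrI:2654681, signal 340), and upstream of tag-340 and of nhl-2, which encodes a TRIM-NHL protein (chrIII:4899914, signal 337).

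B0379.1 and B0379.7 shared a peak of signal 304 (chrI:10074941), and F21C10.10 followed with 279 (chrV:9094445). An intron of madd-2, a TRIM protein known for guiding muscle arms and axons, held a peak of signal 272 (chrV:1229458). The remaining peaks of the 20 strongest, with signals from 240 to 263, had as nearest start W02H3.3, whose summit is at a transfer RNA gene and holds recurring sequence, cpn-3, D1086.2, serp-1.1, T10G3.1 and mtrr-1. Of the 20 strongest, 13 were intergenic (65%, against 61.4% of all E-box peaks) and 6 lay on X (30%, against 28.1%). The adenine preceded the hexamer in 12 (60%, against 63.3%), and 6 also held the DBE (30%, against 10.1%). These differences were not tested.

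No gene of the 4 muscle lists had an E-box peak in its promoter window. The lists held 98 genes of sarcomere proteins, attachment and scaffold, excitation and calcium, and fate factors. Of these, 85 had a candidate in the window and 36 an IDR peak (42.4%), against 19.3% of all 7137 nuclear protein-coding genes with a candidate. None of the 85 had an E-box peak, a count of 0 that allows a share of up to 3.53%, against 141 of the 7137 (1.98%). Among genes with an IDR peak, 0 of 36 muscle genes and 141 of 1380 genes overall (10.2%) had one with the hexamer. The limit of 3.53% refers to genes with a candidate, not to these 36. By peak, 0 of 267 E-box peaks (interval 0 to 1.42) had a summit in the window of a listed muscle gene. Of the other IDR peaks, 43 of 2273 did (1.89%, interval 1.41 to 2.54). The lists were chosen with earlier results of these data known, and their counts are given without a test. Genes outside them were not counted, whatever their role in muscle. Among those were tns-1 and dyc-1, with E-box peaks 82 and 53 bp upstream of a start (signals 81.8 and 81.5). This tns-1 peak had no match in replicate 2.

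By nearest start within 5000 bp, 5 of 88 muscle genes with a nearest candidate had an E-box peak (5.68%), against 2.48% of all genes. Of muscle genes with a nearest IDR peak this was 8.93%, against 12.8% of all genes, and no test was made of this difference. These 5 genes accounted for 6 peaks, 2.25% of E-box peaks (interval 1.03 to 4.82), while 3.56% of the other IDR peaks had a muscle gene as nearest start.

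The calponin gene cpn-3 had 2 of these peaks, 1343 bp upstream of a start (chrI:3986597) and 823 bp downstream of it (chrI:3988763). The upstream peak had a signal of 257 in the pooled list, 107 in replicate 1 and 153 in replicate 2, and the downstream one 126, 66.5 and 56.3. Both exceeded the E-box peak median. At let-2 the peak (chrX:16392291) was 2951 bp upstream with 136 in the pooled list, 62.5 in replicate 1 and 73.5 in replicate 2. The peak of unc-62, a Meis-type homeobox gene, lay in its 5′ UTR (chrV:4508013) with 116, 50.6 and 66.9.

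Below the median were tln-1, the talin gene of muscle attachments, and unc-68. The tln-1 peak was 2261 bp upstream (chrI:1719329) with a signal of 75.8 in the pooled list and 39.3 in replicate 1 and no match in replicate 2. The unc-68 peak (chrV:6930494) was 1456 bp upstream with 66.2 in the pooled list, 31.1 in replicate 1 and 35.9 in replicate 2.

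The body wall myosin gene myo-3, whose promoter is also in the transgene, had IDR peaks of signal 865, 169 and 81.0, and unc-54, the major myosin heavy chain gene, of 111.6 and 91.5. None of these 5 summits had a copy of CAGCTG within 600 bp. The gene hlh-1 itself had an IDR peak 73 bp upstream of its start (chrII:4518501, signal 104, with 28.3 in replicate 1 and 58.2 in replicate 2), also without a copy within 600 bp. The strongest candidate at unc-120 had a signal of 22.2 and rank 9828 among the nuclear candidates, and it was no IDR peak.

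Of the insulin pathway genes daf-16 and daf-2, which were named whatever their values, daf-16 had an E-box peak and daf-2 had none. The daf-16 peak lay in an intron (chrI:10751781) with the hexamer 15.5 bp from the summit, and its signal was 82.3 in the pooled list, 27.9 in replicate 1 and 54.2 in replicate 2. The strain carries the mu86 allele of daf-16, whose extent was not used here. Its transgene also carries daf-16a, and whether that copy includes the sequence of this peak was not examined. The IDR peak at daf-2 (chrIII:3031584, signal 132) had no copy within 600 bp. A daf-2 candidate at chrIII:3037575 with the hexamer had a signal of 53.6, below every IDR peak.

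In the promoter windows of the other lists, 5 genes had an E-box peak, against a background of 1.98% of genes with a candidate. Of the bound genes this is 2 of 16 chaperone genes and 3 of 32 ribosomal protein genes, against 10.2% of all genes with an IDR peak. Of 25 chaperone genes with a candidate, 16 had an IDR peak and 2 an E-box peak, 8% of those with a candidate. They were cct-1, a chaperonin subunit, which shares its peak with the Dishevelled gene mig-5 (chrII:8185200, signal 177), and unc-23, a BAG-domain co-chaperone (chrV:8936943, signal 159). The Hsp70 family genes F44E5.4 and F44E5.5 were not in the chaperone list. Their shared E-box peak (signal 374) is therefore not in this count. Of 69 genes of cytosolic ribosomal proteins, 32 had an IDR peak and 3 an E-box peak, 4.35% of those with a candidate. Those with an E-box peak were rps-23 (chrIV:12391349, signal 104, shared with dpm-3), rps-4 (chrIV:7084981, signal 87.8) and rpl-22 (chrII:5055342, signal 83.1, shared with the securin gene ify-1). The 13 DAF-16 activated targets with a candidate included 7 with an IDR peak and 0 with an E-box peak, which allows a share of up to 23.1%. Of 21 genes of insulin signalling and DAF-16 regulators, 7 had an IDR peak and 0 an E-box peak in the window, which allows up to 14.3%. The insulin-like peptide gene ins-39, with its E-box peak 616 bp upstream, was not in this list. A count of 0 was also found for 9 neuronal, 7 germline, 6 hypodermal and 4 pharyngeal muscle genes with a candidate, which allows up to 33.3%, 42.9%, 50% and 75%, and for the only intestinal gene with one. All of these limits lie above the background.

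No other motif searched differed between E-box peaks and the other IDR peaks beyond the error. The DBE lay at 27 E-box peaks, 10.1% (interval 7.04 to 14.3), and at 8.84% of the others (log2 OR 0.21 ± 0.31, exact test, adjusted p = 0.891 over 6 motifs), and in 2.27% of genome windows. GAGAGA was at 42.3% of E-box peaks and 41.2% of the others, with 9.99% of genome windows. The GATA site TGATAA was at 15.4% of E-box peaks and 15.1% of the others, with 17.9% of genome windows. The DAF-16 associated element CTTATCA, whose other strand holds the GATA site, was at 2.996% of E-box peaks and 3.87% of the others, with 3.47% of genome windows. The MEF2 motif was at 2.25% of E-box peaks and 3.12% of the others, with 6.88% of genome windows. The CArG box, the site of SRF-type factors such as UNC-120, was at 1 E-box peak and 5 others, with 1.22% of genome windows. The lowest adjusted p of these 5 motifs was 0.891 by the exact test. All motifs were searched on both strands of the same window, and matches may overlap one another.

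In the 27 peaks with both the DBE and the E-box, a median of 46 bases separated the sites. They overlapped by 2 bases in the peaks nearest to F40E3.5, rnp-9 and hel-1 and by 1 base in those nearest to F09A5.3 and vps-13. Counting these, 11 of the 27 peaks had fewer than 20 bases between the sites. The DBE was nearer to the summit than the E-box in 15 of the 27. Among the genes nearest to these peaks, named after their values were seen, were egl-9, the prolyl hydroxylase of the hypoxia pathway (chrV:10474281, signal 137), cts-1, the citrate synthase gene (chrIII:10215985, signal 77.5), and sup-12, a splicing regulator of muscle (chrX:3900904, signal 74.8).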

How the data were processed

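Per the file headers and the deposited file records, the authors called candidate peaks on ce11 for each replicate and for both pooled, with a control library in the derivation, and deposited an IDR-thresholded list. The sources used here name no aligner, peak caller or IDR threshold. Each peak's deposited signal is the value of the authors' caller, and its scaling is not stated. It was used to describe, rank or split peaks within a list.

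Sequences came from the RefSeq copy of WBcel235 and genes from Ensembl release 115 on the same assembly. Hexamers and motifs were searched on both strands of the 100 bp on each side of every summit. Two-sided Fisher tests (exact) of shares were run in SciPy 1.17.1 (Python 3.11.15) with Benjamini-Hochberg adjustment within families and a threshold of 0.05. Log2 odds ratios carry the SE of Woolf's formula, and 0.5 was added to each cell when one was 0. Search and counting were tested on simulated data. 2 listed symbols, hsp-16.11 and daf-21, had no match in the annotation. The members, gene lists and tests were chosen with earlier results of these data known. Genes were named at the 20 strongest E-box peaks, in the muscle and other lists with an E-box peak, and hlh-1, unc-120, myo-3, unc-54, daf-16 and daf-2 whatever their values. Replicates 1 and 2 form 1 group; each was left out in turn by using the 2540 strongest nuclear candidates of the other.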

Additional observations from a re-analysis of the deposited data

How the results depend on the processing

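Values here are log2 odds ratios, and the cause of each change was not tested. The higher share of CAGCTG at IDR peaks (0.92) and of adenine before it (1.33) passed under every alternative run, but both became smaller in some. CAGCTG was at 0.53 with 200 bp on each side and 0.60 against candidates matched in both replicates. Adenine was at 0.97 against those candidates and 0.86 in intergenic peaks, with 64.02% of E-box peaks against 49.5% of the other candidates. With 50 bp on each side, the sign turned for introns (-0.20), the promoter window (0.084), GAGAGA (-0.38), the GATA site (-0.28), CAATTG (-0.031) and hexamers in the central part of the window (-0.29). With 200 bp it turned for 5′ UTRs (-0.32), the GATA site (-0.20), the CArG box (-0.94), CAAATG (0.082) and CAATTG (-0.013), and the central part passed (1.10). On the autosomes it turned for the promoter window (0.062), signal at or above the median (-0.13) and CAAATG (0.0013), and the small RNA difference was lost (-0.66). Without small RNA genes it turned for the X share (0.066) and CAAATG (0.050). CAAATG also turned against candidates matched in both replicates (0.093) and in intergenic peaks (0.14), where 2 or more hexamers turned as well (0.24). By the signal of replicate 2, signal at or above the median passed (0.39).

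Without peaks of recurring sequence, an alternative chosen after seeing the data, the sign turned for the X share (0.078), signal (-0.0015), small RNA genes (0.18), GAGAGA (-0.029) and CAAATG (0.048). Leaving out 1 replicate gave -0.21 to 0.14 for 5′ UTRs, -0.26 to 0.33 for the X share, -0.33 to -0.13 for the GATA site, -0.15 to 0.64 for the CArG box and 0.47 to 0.82, both past the threshold, for the central part. It also moved values by over 1.5 times without a change of sign: 0.34 both times for signal at or above the median, 0.27 to 1.08 for coding exons, -0.35 to -0.082 for intergenic, 0.098 to 0.15 for introns, -2.16 to -1.12 for 3′ UTRs, 0.36 to 0.51 for the DBE, -1.02 to -0.34 for the DAF-16 associated element, 0.0025 to 0.14 for GAGAGA, -1.10 to -0.80 for MEF2 and -0.34 to -0.29 for 2 or more hexamers. Of these, coding exons alone passed, without replicate 1. Muscle genes with an E-box peak numbered 0 to 1 without 1 replicate, 2 in a window from 2000 bp upstream to 500 bp downstream, and 5 by nearest start.

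No paired analysis was possible because both replicates belong to 1 group. Depth is unknown, the IDR and pooled lists combine both replicates, and the number of peaks limits the precision, as the interval of 57.4 to 68.9% around the adenine share shows.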
